A study of Mus musculus with 4 samples.

Results

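Imprinted genes were examined in mRNA from the polysomes of striatal cells that carry a normal or an expanded Huntington disease repeat. The 43 members are a list of mouse imprinted genes from 18 domains, with Igf2 and Igf2r left out, taken by symbol from the 53465 genes of the count table. The rule takes genes by name and uses no measured value, although the list was drawn up with earlier results of these data known. Of the 43 genes, 25 are known to be expressed from the paternal allele and 18 from the maternal allele, and 28 had enough counts to enter the comparison, which covered 12961 genes in all. The reads carried no information on the parent of origin that was used here, so each value is the sum of both alleles.

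The cells are immortalized striatal lines from knock-in mice, whose strain the labels give as C57/BL6. Control cells (STHdhQ7/Q7, 2 libraries) have 7 glutamines in exon 1 of both copies of huntingtin and HD-homo cells (STHdhQ111/Q111, 2 libraries) have 111. Both groups were treated with harringtonine (2 µg/ml, 2 min), which stops new initiation while elongating ribosomes run off, and then with cycloheximide, so the libraries hold mRNA that was still in polysomes after the run-off (PS-RRA-mRNA-Seq). Each genotype is 1 line, so what the repeat does and whatever else sets the lines apart cannot be told apart. Total RNA of these samples was not analysed here, and more mRNA in the cells, a larger polysome share of it, or a larger share of cells that express it cannot be told apart. The study describes the 2 libraries of a group as independent experiments, both on the same line, and p-values measure the spread between them.

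An imprinted gene is expressed mainly from the copy inherited from 1 parent. The choice is set by DNA methylation that is laid down in the germ line at imprinting control regions, and it is often carried through a domain by a long noncoding RNA or by an insulator, so that neighbouring genes can be expressed from opposite parental copies. Many paternally expressed genes promote growth and many maternally expressed genes restrain it, and several, such as those of the Prader-Willi/Angelman domain, are strongly expressed in the brain.

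The counts summed to between 12372090 and 15472808 per library. Replicates differed by more than sampling noise (chi-square per degree of freedom 20.3 between the control and 21.5 between the HD-homo libraries). Values are CPM, the counts of a gene relative to the effective size of its library after TMM scaling, with n = 2 libraries per group throughout, and log2 fold changes are of HD-homo over control with their standard errors (SE). Adjusted p-values are from edgeR's quasi-likelihood test over all 12961 genes, and a gene is called higher or lower at an adjusted p under 0.05. An exact permutation test of 2 against 2 libraries cannot go below p = 0.33, so no such test was run. Of 10 markers of striatal projection neurons, 3 had 0 counts in every library, among them the dopamine receptors Drd1 and Drd2, 2 were called higher (Foxp1 and Ppp1r1b) and 1 lower (Adora2a). Their summed level, most of it Foxp1, was 61.6 and 66.4 CPM in control and 152 and 124 CPM in HD-homo. The summed level of 8 mesenchymal markers, most of it Col1a1, was 925 and 1870 CPM in control and 5320 and 5210 CPM in HD-homo. Of these markers 4 were called higher, 2 were not called (Col3a1 and Pdgfrb) and 2 were not tested. Among 5 neural progenitor markers, 3 were called lower (Nes, Sox2 and Pax6), and the summed level, most of it Vim, was 4820 and 6330 CPM in control and 3020 and 3740 CPM in HD-homo. The part of this difference between the lines in the results on imprinted genes was not tested.

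Sequences are shown for genes that were called higher and for genes that were called lower, since these are the loci on which the comparison turns. The windows are 250 bases before to 50 bases after a RefSeq transcript start (GRCm38.p6), written 5′ to 3′ on the strand of the gene. Capitals mark the hexamer TGCCGC or its reverse complement GCGGCA, the letters that the zinc finger protein ZFP57 binds at imprinting control regions when the CpG in them is methylated.
Mest (chr6:30737800-30738099, plus strand): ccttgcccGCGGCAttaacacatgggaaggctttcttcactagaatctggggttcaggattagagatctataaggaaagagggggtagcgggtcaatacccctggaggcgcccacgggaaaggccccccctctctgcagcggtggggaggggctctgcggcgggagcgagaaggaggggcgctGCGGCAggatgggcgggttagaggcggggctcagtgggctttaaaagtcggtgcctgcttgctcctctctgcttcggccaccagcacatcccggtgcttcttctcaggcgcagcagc
Grb10 (chr11:12037371-12037670, minus strand): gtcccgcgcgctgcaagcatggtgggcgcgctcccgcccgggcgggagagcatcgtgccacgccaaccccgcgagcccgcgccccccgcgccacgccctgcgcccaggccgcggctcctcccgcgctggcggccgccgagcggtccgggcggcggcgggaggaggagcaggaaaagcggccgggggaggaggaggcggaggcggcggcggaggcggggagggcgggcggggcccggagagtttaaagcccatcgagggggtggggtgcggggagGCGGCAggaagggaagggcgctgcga
Meg3 (chr12:109540746-109541045, plus strand): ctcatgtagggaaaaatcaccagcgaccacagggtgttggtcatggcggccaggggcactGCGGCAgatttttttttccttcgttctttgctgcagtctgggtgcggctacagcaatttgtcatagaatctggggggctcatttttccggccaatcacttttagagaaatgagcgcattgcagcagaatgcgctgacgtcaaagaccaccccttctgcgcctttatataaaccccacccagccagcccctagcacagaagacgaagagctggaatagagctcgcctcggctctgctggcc
Ndn (chr7:62348027-62348326, plus strand): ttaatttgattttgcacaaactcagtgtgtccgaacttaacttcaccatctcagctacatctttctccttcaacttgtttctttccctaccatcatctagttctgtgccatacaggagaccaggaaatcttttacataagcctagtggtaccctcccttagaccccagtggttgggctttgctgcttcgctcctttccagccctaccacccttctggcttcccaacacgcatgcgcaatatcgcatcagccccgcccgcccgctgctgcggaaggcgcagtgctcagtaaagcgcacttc
Nnat (chr2:157559828-157560127, plus strand): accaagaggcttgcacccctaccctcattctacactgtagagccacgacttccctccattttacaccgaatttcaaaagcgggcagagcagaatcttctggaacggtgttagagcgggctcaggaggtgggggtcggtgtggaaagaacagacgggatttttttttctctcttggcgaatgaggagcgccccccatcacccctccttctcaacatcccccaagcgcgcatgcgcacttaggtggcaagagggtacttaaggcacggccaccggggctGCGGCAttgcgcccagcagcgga

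The window shown for Mest held 2 matches and those shown for Grb10, Meg3 and Nnat 1 each, whereas that of Ndn held none. Mest, Grb10 and Meg3 each also had a window, not shown, that held none. Among the other genes called higher, the windows of Dlk1 and Rian held none and that of Copg2 held 1. Over the 35 members with a RefSeq promoter window used here, 12 of 48 windows (25.0%) held the hexamer on either strand, against 3812 of 32846 windows (11.6%) over all genes. Some windows overlap or are shared, as the 2 windows of Mest that differ by a few bases and the 1 window of Snrpn and Snurf. The hexamer contains a CpG, and the windows of the members held more CpGs, with a median of 14 against 7 over all windows. Among the called members, 5 of 10 windows of those that were higher and 2 of 8 windows of those that were lower held it. These windows belong to 6 higher genes, 4 of them with the hexamer, and to 5 lower genes, 2 of them with it. The called members H19, Cdkn1c, Peg10 and Impact had no window here. The 45 CpGs in the Grb10 window shown were the most in any window of a member.

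MicroRNAs also lie within several of the genes that were called higher, and within members that were not tested (Mirg, Rtl1 and Usp29). Their mature RefSeq sequences are shown for H19, where the hairpin is in an exon, and for Mest, where it is in an intron, with the seed (bases 2 to 8) in capitals.
miR-675-5p (in H19): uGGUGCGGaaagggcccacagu
miR-675-3p (in H19): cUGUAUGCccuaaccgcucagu
miR-335-5p (in Mest): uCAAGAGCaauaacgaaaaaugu
miR-335-3p (in Mest): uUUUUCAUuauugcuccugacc

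The 4 seeds differ from each other. In the RefSeq table Meg3 holds 3 mature microRNAs, Rian 6 and Mirg 26. The libraries measured the host transcripts, and the levels of the microRNAs themselves were not analysed here.

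In the polysomes of HD-homo cells, 8 of the 28 tested imprinted genes exceeded control and 7 fell below it, and 13 did not pass the test. Over all tested genes 10.4% were called higher and 10.9% lower. The calls fell in both directions, and the median log2 fold change of the 28 genes was −0.05 (all tested genes, 0.00). This median was 0.16 without control replicate 2 and −0.28 without HD-homo replicate 2. Before adjustment, 9 members had p under 0.05 in the direction of HD-homo and 7 in the other. A gene that is high in 1 group only passes the filter through that group, so the counts describe the members and are not a test of the list.

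The calls were then counted by expressed allele. Among the 16 tested paternally expressed genes, 2 were higher (Mest and Dlk1), 7 were lower (Ndn, Peg12, Snrpn, Peg10, Impact, Nnat and Rasgrf1) and 7 did not pass. Among the 12 tested maternally expressed genes, 6 were higher (H19, Copg2, Grb10, Meg3, Rian and Cdkn1c), none was lower and 6 did not pass. By DESeq2 and by limma-voom none was lower either, and none had an unadjusted p under 0.05 for a lower level. The median log2 fold change was −0.50 for the paternally expressed and 1.1 for the maternally expressed genes. Setting the genes at 0 in a group to their bounds cannot move these medians, since such genes stay at the ends of the order. H19, Meg3 and Rian, at 0 in control, passed the filter through HD-homo only and raise the maternal median. The value of 1.1 thus depends on the filter and does not measure a difference between the alleles. With the fit limited to genes with at least 10 counts in every library, 1 of 10 paternally expressed genes was higher and 5 were lower, and 3 of 8 maternally expressed genes were higher and none lower. Of all 11485 genes tested with this limit, 815 were higher and 883 lower. In that fit the maternally expressed genes that did not pass had log2 fold changes between −0.50 (Ube3a) and 0.07 (Gnas). The 3 that were higher were Copg2 (0.765), Cdkn1c (1.43) and Grb10 (1.55). Without HD-homo replicate 2, where Meg3 was no longer tested and Copg2 and Dlk1 no longer passed, 4 of 11 maternally expressed genes were higher and 1 lower (Trappc9). The difference between the alleles was described only, since the genes of a domain are not independent.

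**Figure D1:**
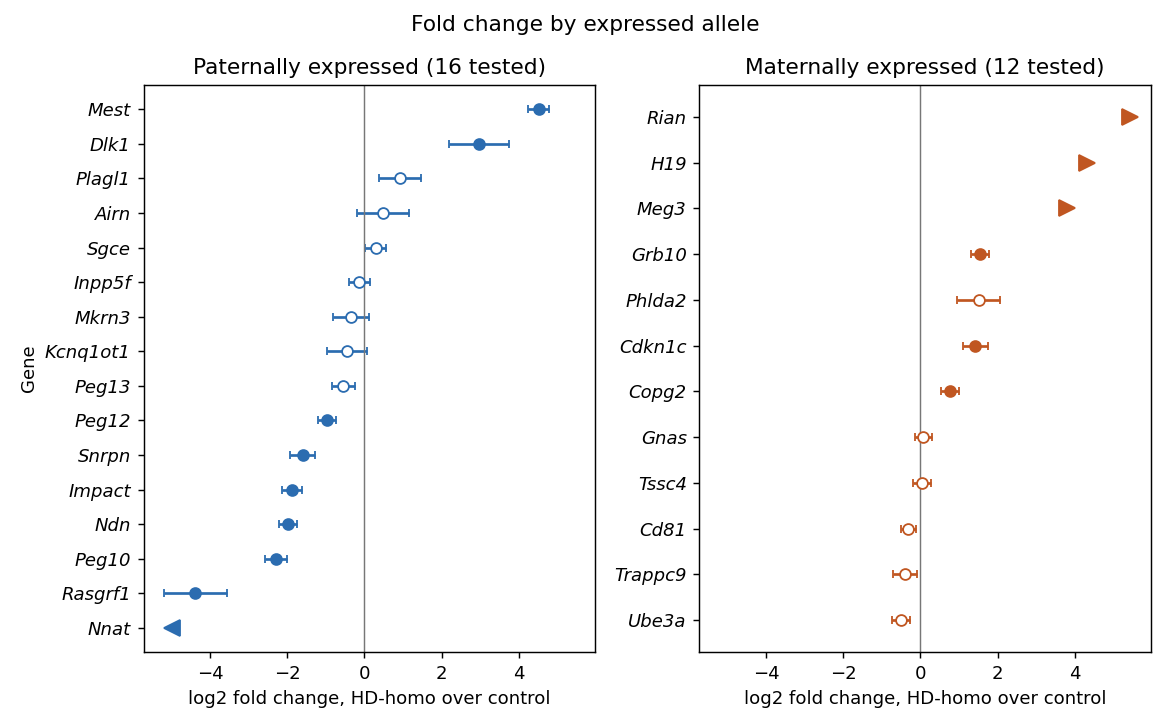
log2 fold change of HD-homo over control (x axis) for the 16 paternally (left) and 12 maternally (right) expressed genes that were tested, with SE bars and with filled symbols for called genes. Triangles are bounds for genes with 0 counts in a group. On the left, 7 filled symbols lie below 0 and 2 above, and on the right all 6 filled symbols lie above 0.

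The H19 domain on distal chromosome 7 was represented by H19 alone (ENSMUSG00000000031, chr7:142575529-142578143), a spliced noncoding RNA expressed from the maternal copy. It had 0 counts in both control libraries and 37 and 17 counts, or 2.88 and 1.24 CPM, in the HD-homo libraries. The groups did not overlap, and H19 was called higher (edgeR adjusted p = 2.69e-04). With 3 counts over the control group as a floor, its rise was at least 19.9-fold. This bound was 10.3 and 9.59 without control replicate 1 and 2, and 12.2 and 28.2 without HD-homo replicate 1 and 2. Bounds and count intervals here and below cover counting error only.

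In the Dlk1-Dio3 domain of chromosome 12 the noncoding RNAs of the maternal copy and a coding gene of the paternal copy were both higher. Meg3 (ENSMUSG00000021268, chr12:109541001-109571726), a long noncoding RNA, had 0 counts in both control libraries and 14 and 24 counts, or 1.09 and 1.75 CPM, in HD-homo. It was at least 14.0-fold higher (edgeR adjusted p = 3.40e-04), with bounds of 7.27 and 6.75 without control replicate 1 and 2 and of 17.2 and 10.7 without HD-homo replicate 1 and 2. Rian (chr12:109603940-109661716), the host transcript of a cluster of C/D box snoRNAs, had 0 counts in control and 69 and 48 counts, or 5.37 and 3.51 CPM, in HD-homo. Neither gene had a single count in the control libraries, and both were seen in each HD-homo library. Rian was at least 43.1-fold higher (edgeR adjusted p = 1.15e-05), with bounds of 22.4 and 20.8 without control replicate 1 and 2 and of 34.3 and 52.6 without HD-homo replicate 1 and 2. Mirg, the microRNA host downstream of them, was not tested, with 0 counts in control and 3 in each HD-homo library. Its bound was at least 2.21-fold higher, 1.15 and 1.07 without control replicate 1 and 2, and without either HD-homo library both groups were at or under the floor.

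Dlk1 (chr12:109452823-109463336) encodes a transmembrane protein related to the Notch ligands that keeps preadipocytes and other progenitors from differentiating. Its counts were 0 and 5 in control and 11 and 26 in HD-homo, or 0 and 0.33 against 0.86 and 1.90 CPM. The 4 values were low but the groups did not overlap, and Dlk1 was called higher with a log2 fold change of 2.97 (SE 0.78, edgeR adjusted p = 0.0143). The ratio of counts was 8.19 (95% counting interval 3.21 to 26.7). The ratio was 4.25 without control replicate 1, at least 6.57 without control replicate 2, and 11.2 and 5.03 without HD-homo replicate 1 and 2. The call was lost with DESeq2 (adjusted p = 0.0589) and when control replicate 1 (0.0721) or HD-homo replicate 2 (0.134) was left out. The other paternally expressed genes of the domain were absent or nearly so. Rtl1, a retrotransposon-derived gene of the placenta, had 0 counts in all 4 libraries, and Dio3, the deiodinase that inactivates thyroid hormone, had 1 count in 1 HD-homo library.

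All 3 tested noncoding RNAs of the maternal copy, H19, Meg3 and Rian, were at 0 in control and called higher. They entered the comparison through their HD-homo counts alone, so none of them could have been called lower. Mirg, also of the maternal copy and at 0 in control, was not tested. The contrast with the paternal copy is for this reason a description and not a test. None of the 3 noncoding RNAs of the paternal copy was called by edgeR, DESeq2 or limma-voom, and none had an unadjusted p under 0.05. Kcnq1ot1, which silences the Kcnq1 domain in cis, had 10 and 22 counts in control and 8 and 13 in HD-homo (log2 fold change −0.45, SE 0.51, edgeR adjusted p = 0.618). Airn, which silences its domain on chromosome 17, had 5 and 11 counts in control and 16 and 4 in HD-homo (0.47, SE 0.67, edgeR adjusted p = 0.70). Peg13, which lies within Trappc9, was at 7.99 and 8.34 CPM in control and 6.69 and 4.53 CPM in HD-homo (−0.54, SE 0.29, edgeR adjusted p = 0.241). The groups overlapped for Kcnq1ot1 and Airn but not for Peg13. Both silencing RNAs are antisense to other genes, and the strand setting of the counting is not given in the sources used here, so reads of the partner genes cannot be told apart from theirs.

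**Figure D2:**
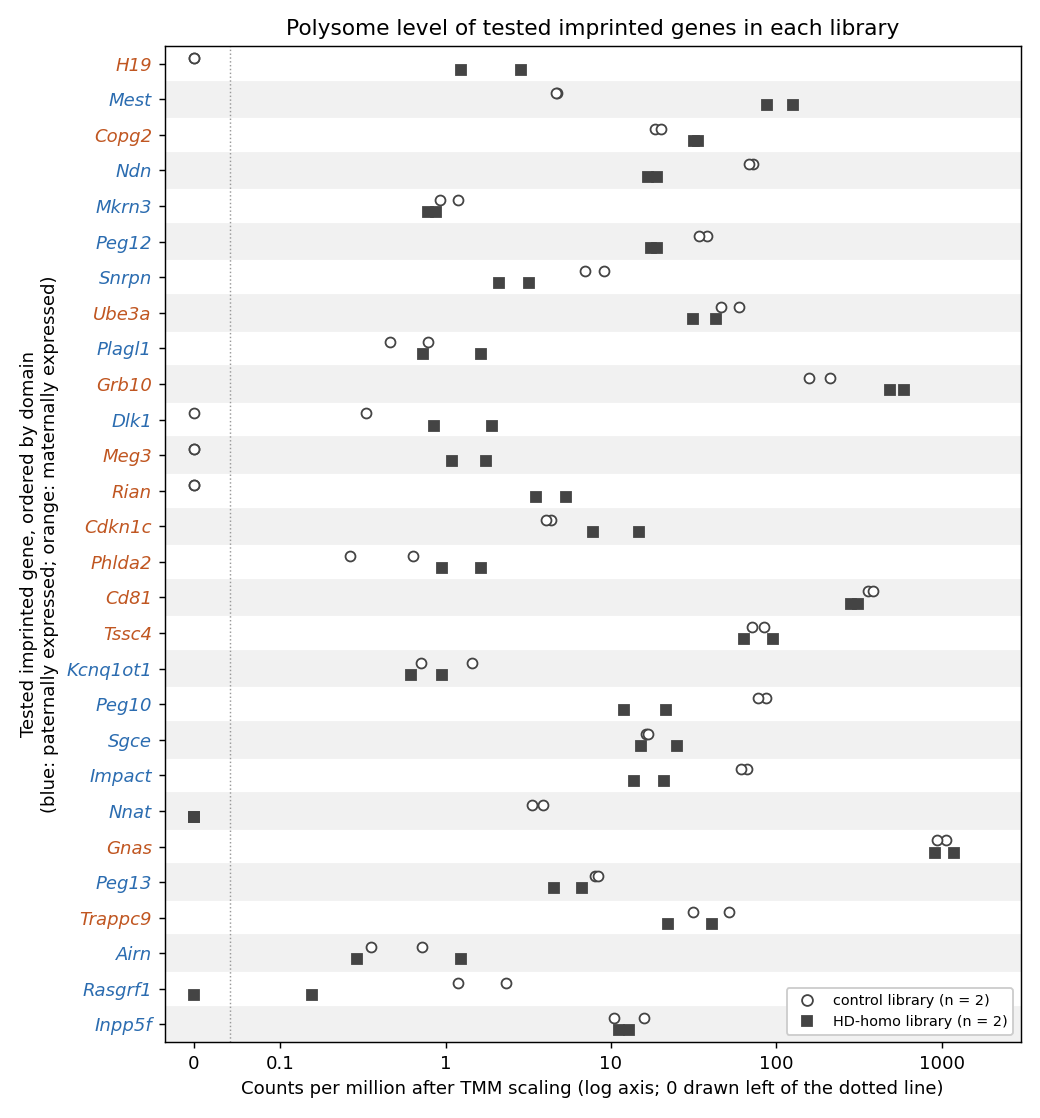
CPM after TMM scaling (log axis, with 0 drawn left of the dotted line) of the 28 tested imprinted genes in each control (open circle) and HD-homo (filled square) library, with gene names coloured by expressed allele. H19, Meg3 and Rian are at 0 in both control libraries and Nnat is at 0 in both HD-homo libraries, while Mest is at 4.74 and 4.66 CPM in control and at 126 and 88.4 CPM in HD-homo.

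Mest showed the largest difference among the genes with counts in every library. It lies on chromosome 6 (ENSMUSG00000051855, chr6:30723547-30748465), is expressed from the paternal copy and encodes a hydrolase-like protein of the endoplasmic reticulum that is abundant in embryonic mesoderm. It was at 4.74 and 4.66 CPM in control and at 126 and 88.4 CPM in HD-homo. The groups were far apart (4.70 ± 0.054 against 107 ± 26.8 CPM, SD, n = 2), with a log2 fold change of 4.51 (SE 0.28, edgeR adjusted p = 8.49e-08), or 22.8-fold. The call held under all 11 alternatives. Per kb of exon, its level went from 1.19 to 27.2 CPM, which placed it 18th of the 28 tested genes in control and 5th in HD-homo.

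Copg2 (chr6:30747554-30896794) encodes a subunit of the COPI vesicle coat and is transcribed towards Mest on the opposite strand, from the maternal copy in some tissues. It was at 18.5 and 20.1 CPM in control and 31.9 and 33.7 CPM in HD-homo. These values did not overlap, and the log2 fold change was 0.76 (SE 0.23, edgeR adjusted p = 0.0284). The call was lost without control replicate 1 (adjusted p = 0.136), control replicate 2 (0.0789) and HD-homo replicate 2 (0.0949). The exons of Mest and Copg2 overlap over 912 bases, and reads of this stretch cannot be assigned to either gene without strand.

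In the Prader-Willi/Angelman domain of chromosome 7, 3 of the 5 tested genes were lower and none was higher, by edgeR, DESeq2 and limma-voom alike, or at an unadjusted p under 0.05. Ndn (chr7:62346569-62350262) encodes necdin, a MAGE-family growth suppressor of postmitotic neurons. It was at 72.6 and 68.4 CPM in control and 18.9 and 16.9 CPM in HD-homo. The spread within each group was small against this gap (70.5 ± 2.93 and 17.9 ± 1.44 CPM, SD, n = 2), and the log2 fold change was −1.98 (SE 0.22, edgeR adjusted p = 1.98e-05). Per kb of exon, Ndn stood 5th of the tested genes in control and 9th in HD-homo.

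Peg12 (chr7:62461871-62464510), a single-exon gene of the Frat family, whose members bind GSK3 and promote Wnt signalling, was at 37.9 and 33.9 CPM in control and 17.4 and 19.1 CPM in HD-homo. Snrpn (chr7:59982495-60140219), which encodes the spliceosomal protein SmN, was at 9.13 and 6.96 CPM in control and 3.19 and 2.12 CPM in HD-homo. Both genes were lower in each HD-homo library than in either control library. The log2 fold change of Peg12 was −0.98 (SE 0.23, edgeR adjusted p = 0.00705) and that of Snrpn −1.60 (SE 0.33, edgeR adjusted p = 0.00261). The calls of Ndn, Peg12 and Snrpn held under all 11 alternatives. Snurf, the upstream reading frame of the bicistronic Snrpn transcript, had 0 counts, and since their exons share 216 bases on 1 strand the counting can have assigned its reads to Snrpn.

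The remaining genes of the domain did not pass the test or were at 0. Ube3a, a ubiquitin ligase that is expressed from the maternal copy in neurons and from both copies elsewhere, was at 46.4 and 59.6 CPM in control and 31.5 and 43.5 CPM in HD-homo (log2 fold change −0.50, SE 0.24, edgeR adjusted p = 0.182). Mkrn3, a RING-finger ubiquitin ligase that restrains puberty, had 13 and 18 counts in control and 10 and 12 in HD-homo (−0.34, SE 0.46, edgeR adjusted p = 0.682). The groups did not overlap for either gene. The difference was smaller than its SE for Mkrn3 and about 2 SE for Ube3a, which was called lower with the replicate number as a block (adjusted p = 0.0123). Magel2, a MAGE-family partner of ubiquitin ligases, had 0 counts in all 4 libraries. Snhg14, the noncoding RNA that overlaps Ube3a on the opposite strand, was not tested, with 3 and 7 counts in control and 0 and 1 in HD-homo.

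Other paternally expressed genes that were lower lie alone or in small domains. Peg10 (chr6:4747306-4760517), a retrotransposon-derived gene with gag- and pol-like reading frames that is needed for placenta formation, was at 86.3 and 78.0 CPM in control and 21.6 and 12.1 CPM in HD-homo. Every HD-homo value was below every control value, with a log2 fold change of −2.29 (SE 0.28, edgeR adjusted p = 3.83e-05). Sgce, which encodes epsilon-sarcoglycan, is paternally expressed like Peg10 and starts 0.099 kb from it on the opposite strand. It was at 16.2 and 16.7 CPM in control and 25.1 and 15.2 CPM in HD-homo. Its groups overlapped, and it was not called (log2 fold change 0.29, SE 0.27, edgeR adjusted p = 0.536). Asb4, an ankyrin and SOCS box gene of the same domain, was not tested, with 5 counts in control and 2 in HD-homo.

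Impact (chr18:12955852-12992950) encodes an inhibitor of GCN2, the eIF2α kinase that slows initiation when amino acids are scarce, and is abundant in neurons. It was at 66.8 and 61.3 CPM in control and 21.1 and 13.8 CPM in HD-homo. It was lower in both HD-homo libraries, with a log2 fold change of −1.88 (SE 0.25, edgeR adjusted p = 9.64e-05). None of 6 listed eIF2 kinases and associated genes was called in either direction by edgeR, DESeq2 or limma-voom, and 1 of them (Gcn1) was higher at an unadjusted p under 0.05 by edgeR and limma-voom. Eif2ak4, which encodes GCN2 itself, was at 20.4 and 19.4 CPM in control and 21.6 and 17.2 CPM in HD-homo, and Atf4, which is translated when eIF2α is phosphorylated, had a log2 fold change of 0.26 (SE 0.22, edgeR adjusted p = 0.478).

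Nnat (chr2:157560078-157562522) encodes neuronatin, a small proteolipid of the endoplasmic reticulum in developing brain, and lies within an intron of Blcap. It had 55 and 51 counts in control, or 3.89 and 3.35 CPM, and 0 counts in both HD-homo libraries. It was the only tested member at 0 throughout HD-homo, and it was called lower (edgeR adjusted p = 1.55e-05). With 3 counts over the HD-homo group as a floor it was at least 31.9-fold lower, with bounds of 29.6 and 34.4 without control replicate 1 and 2 and of 16.5 and 15.5 without HD-homo replicate 1 and 2. Blcap itself was at 103 and 93.9 CPM in control and 109 and 141 CPM in HD-homo and was not called (edgeR adjusted p = 0.312).

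Rasgrf1 (chr9:89909908-90026977), a calcium-responsive exchange factor of Ras in neurons, had 33 and 18 counts in control and 2 and 0 in HD-homo, or 2.33 and 1.18 against 0.16 and 0 CPM. It was low throughout and lower in both HD-homo libraries (log2 fold change −4.38, SE 0.81, edgeR adjusted p = 0.00126). The ratio of counts was 23.1-fold lower (95% counting interval 6.06 to 195.5). It was 15.7 and 31.0 without control replicate 1 and 2, at least 7.93 without HD-homo replicate 1, and 11.2 (a ratio, 95% counting interval 2.94 to 94.7) with HD-homo replicate 2 left out. The calls of Peg10, Impact, Nnat and Rasgrf1 held under every alternative in which the gene was tested.

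Grb10 was the most abundant called member per kb of exon. It lies on chromosome 11 (ENSMUSG00000020176, chr11:11930508-12038683) and encodes an adaptor that binds and inhibits the insulin receptor. It is expressed from the maternal copy in most tissues and from the paternal copy in neurons. It was at 157 and 211 CPM in control and 490 and 589 CPM in HD-homo. The groups did not overlap (184 ± 38.4 against 540 ± 69.9 CPM, SD, n = 2), and the log2 fold change was 1.55 (SE 0.23, edgeR adjusted p = 1.92e-04), a call that held under all 11 alternatives. Its level went from 20.3 to 59.4 CPM per kb of exon. Ddc, which encodes DOPA decarboxylase and is imprinted next to Grb10 in the heart, had 0 counts in all 4 libraries.

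In the Kcnq1 domain of chromosome 7, 1 of the 5 tested genes was called by edgeR, Cdkn1c. Cdkn1c (chr7:143458339-143461050) encodes p57Kip2, a cyclin-dependent kinase inhibitor that holds progenitors out of the cell cycle. It was at 4.32 and 4.07 CPM in control and 14.8 and 7.82 CPM in HD-homo. Both HD-homo libraries were higher, but they differed from each other by more than the lower of them differed from control, and the log2 fold change was 1.43 (SE 0.33, edgeR adjusted p = 0.00638). Without HD-homo replicate 1 it was 0.91 and no longer passed (adjusted p = 0.0813). Of 6 CDK inhibitors outside the list, Cdkn2c was called higher (log2 fold change 1.14, SE 0.22, edgeR adjusted p = 0.00141) and none was called lower by edgeR, DESeq2 or limma-voom, with 1 (Cdkn2b) lower at an unadjusted p under 0.05 by edgeR and limma-voom. The closest relatives of Cdkn1c, Cdkn1a (0.11, SE 0.22) and Cdkn1b (−0.23, SE 0.21), did not pass the test.

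The other maternally expressed genes of the domain were not called in the main edgeR comparison. Phlda2, which limits placental growth, had 9 and 4 counts in control and 21 and 13 in HD-homo (log2 fold change 1.51, SE 0.56, edgeR adjusted p = 0.0748), and it passed when no filter on low counts was used (adjusted p = 0.0353). Slc22a18, a transporter-like membrane protein, had too few counts for the filter, with 0 in both control libraries and 13 and 9 in HD-homo, and it was called higher by edgeR with no filter (adjusted p = 2.94e-05), by DESeq2 (0.0113) and by edgeR without control replicate 1 (0.00762) or 2 (0.0111). These counts put it at least 8.11-fold higher, with bounds of 4.21 and 3.91 without control replicate 1 and 2 and of 6.43 and 9.90 without HD-homo replicate 1 and 2. Ascl2, a transcription factor of trophoblast, had 0 counts in control and 2 and 1 in HD-homo, which is at the floor. Cd81, a tetraspanin, was at 357 and 383 CPM in control and 284 and 313 CPM in HD-homo (−0.31, SE 0.20, edgeR adjusted p = 0.346). Tssc4, an assembly factor of the U5 snRNP, was at 71.5 and 84.7 CPM in control and 64.3 and 95.9 CPM in HD-homo (0.04, SE 0.23, edgeR adjusted p = 0.944). Cd81 and Tssc4 are known to be imprinted in placenta.

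Among the members that were not called, some were abundant. Gnas, whose main product is the stimulatory G protein alpha subunit and whose locus also makes transcripts of either parental copy, was at 1057 and 933 CPM in control and 1183 and 911 CPM in HD-homo (log2 fold change 0.07, SE 0.22, edgeR adjusted p = 0.871). Its groups overlapped, and the count sums all transcripts of the locus. Trappc9, a TRAPP complex subunit, was at 31.6 and 51.6 CPM in control and 22.3 and 41.0 CPM in HD-homo (−0.39, SE 0.31, edgeR adjusted p = 0.446), and it passed without HD-homo replicate 2 (−0.90, adjusted p = 0.0496). Inpp5f, a phosphoinositide phosphatase of which 1 variant is imprinted in brain, was at 10.5 and 15.9 CPM in control and 11.1 and 12.9 CPM in HD-homo (−0.13, SE 0.28, edgeR adjusted p = 0.806). Plagl1, the zinc finger factor Zac1 that regulates other imprinted genes, had 11 and 7 counts in control and 21 and 10 in HD-homo (0.92, SE 0.54, edgeR adjusted p = 0.289).

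The Peg3 domain was at or near 0 in both lines. Peg3, a zinc finger gene, had 0 and 5 counts in control and 1 and 0 in HD-homo, and Usp29 and Zim1 had 0 counts in all 4 libraries. Nap1l5, a nucleosome assembly protein-like gene within Herc3, had 3 counts in 1 HD-homo library and none elsewhere. Zdbf2, a zinc finger gene, had 1 count in 1 control library, and Slc22a3, an organic cation transporter, had 0 counts. In all, 7 of the 43 members had 0 counts in every library. With a floor of 3 counts, expression below that level was not detectable at this depth.

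**Figure D3:**
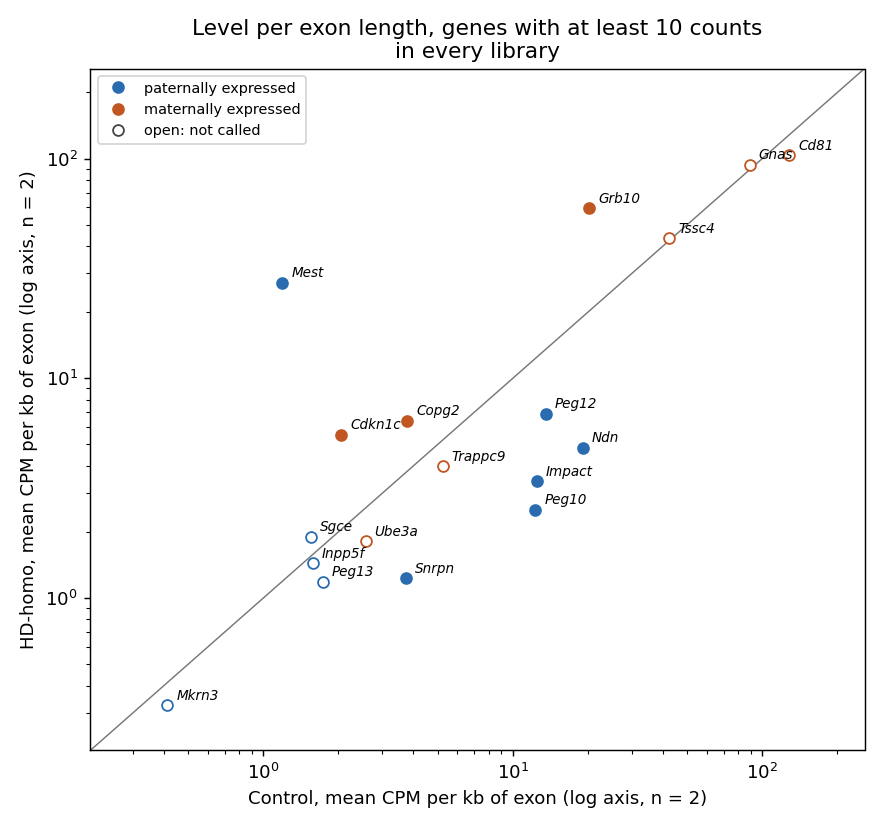
Mean CPM per kb of exon in HD-homo (y axis) against control (x axis), both on log axes, for the 18 imprinted genes with at least 10 counts in every library, with the line of equal level. Mest, Grb10, Cdkn1c and Copg2 (filled, called higher) lie above the line and Ndn, Peg12, Snrpn, Peg10 and Impact (filled, called lower) below it, while Cd81 and Gnas, the 2 most abundant, lie near it.

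Per kb of exon, the order at the top of the list was the same in both groups, with Cd81 first (128 CPM per kb in control and 104 in HD-homo) and Gnas second (88.9 and 93.6). Tssc4 came next and then Grb10 in control, and the reverse held in HD-homo. The levels of Cd81 and Gnas in HD-homo differed by less than the spread of Gnas between its 2 libraries. Below them, Ndn, Peg12, Impact and Peg10 held places 5 to 8 in control, at 19.1, 13.6, 12.5 and 12.3 CPM per kb. In HD-homo, Mest took the 5th place and Peg12 stayed 6th, at 6.91 CPM per kb. Ndn, Impact and Peg10 had levels of 4.84, 3.40 and 2.53 CPM per kb there.

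Between the outermost members of a domain or within 500 kb of them, 122 other genes were tested, of which 15 were higher and 18 lower. Thus 27.0% were called against 21.2% of all tested genes and 53.6% of the tested members. Their median log2 fold change was −0.03. Some of these neighbours are in the further list of imprinted genes described below, called ones such as Begain and Pon3 and uncalled ones such as Nap1l4. The share of the neighbours is therefore not that of genes without imprinting. In the Peg10 domain all 7 tested neighbours were called, 4 higher and 3 lower. The higher ones include Col1a2, a chain of type I collagen and a mesenchymal marker, at 16.8 and 19.7 CPM in control and 1121 and 1125 CPM in HD-homo. They also include Pon3, a lactonase of the paraoxonase family, with 2 counts in each control library and 136 and 104 in HD-homo. The 3 lower ones, like Peg10 itself, were Ppp1r9a (log2 fold change −3.36, SE 0.63), Pdk4 (−2.34, SE 0.45) and Pon2 (−1.02, SE 0.21). In the Prader-Willi/Angelman domain 1 of 3 neighbours was called, Atp10a, a phospholipid flippase, which was lower (log2 fold change −0.74, SE 0.21, edgeR adjusted p = 0.0216).

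Around the Dlk1-Dio3 domain, 1 of 8 tested neighbours was higher and 1 lower. The higher one was Begain, a postsynaptic density gene upstream of Dlk1, with 4 counts in each control library and 50 and 48 in HD-homo (log2 fold change 3.72, SE 0.46, edgeR adjusted p = 4.81e-05). The lower one was Dync1h1, the heavy chain of cytoplasmic dynein, with a log2 fold change of −1.20 (SE 0.24, edgeR adjusted p = 0.00194). Around Mest, 2 of 8 neighbours were higher, Tmem209 (0.87, SE 0.23, edgeR adjusted p = 0.0144) and Cpa4 (1.51, SE 0.41, edgeR adjusted p = 0.0159), both smaller than the 4.51 of Mest. Around Nnat, 2 of 13 were lower and none higher, by edgeR, DESeq2 and limma-voom alike, or at an unadjusted p under 0.05. Gm14287, which is 117 bases long in the annotation, had 87 and 62 counts in control and 0 and 1 in HD-homo, and Platr27 had 12 counts in each control library and 0 in HD-homo.

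**Figure D4:**
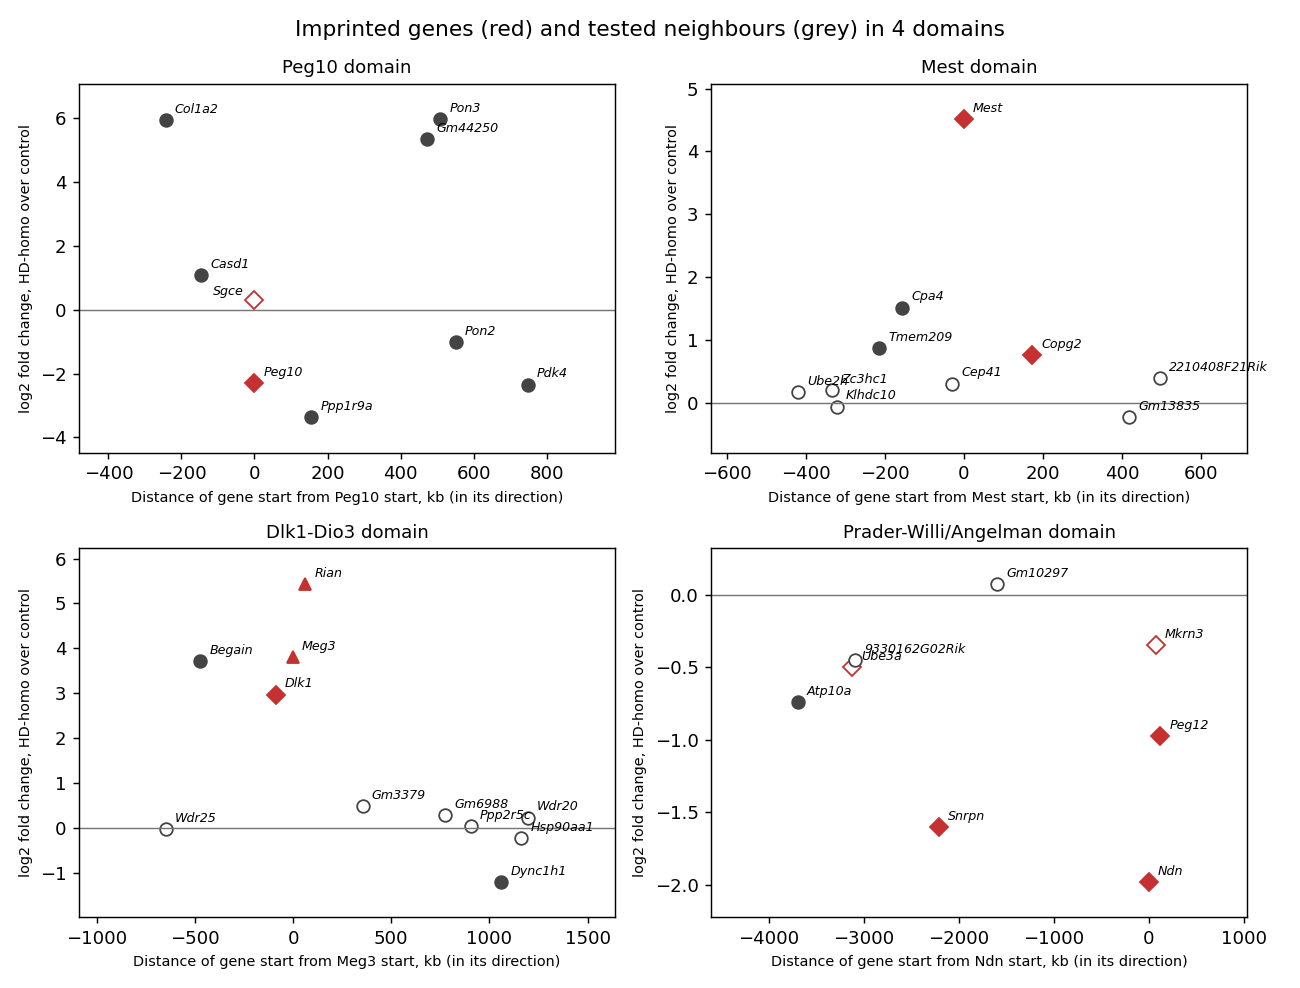
log2 fold change of HD-homo over control (y axis) against the distance in kb of each tested gene's start from the start of Peg10, Mest, Meg3 or Ndn (x axis) in 4 domains, with members as red diamonds, neighbours as grey circles and called genes filled. The neighbours Ppp1r9a, Pon2, Pon3, Begain and Atp10a are in the further list of imprinted genes. Triangles are bounds for Meg3 and Rian, which had 0 counts in control. All 7 neighbours of Peg10 are filled, and around Mest and in the Dlk1-Dio3 domain the members lie above most neighbours.

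A further list of 43 imprinted genes outside the members, several of which are also among these neighbours, was called in both directions as well. Of its 22 tested genes 6 were higher and 6 lower, with a median log2 fold change of −0.25. This list was not split by expressed allele, so the allele counts of the members were not followed in it. The lower genes with the lowest p were Ppp1r9a and Pon2, both neighbours of Peg10. The higher genes with the lowest p were Slc38a4, a paternally expressed amino acid transporter, with 2 counts in each control library and 105 and 131 in HD-homo (log2 fold change 5.94, SE 0.47, edgeR adjusted p = 7.98e-07), and Pon3. Dcn, which encodes the matrix proteoglycan decorin and is also a mesenchymal marker, had a log2 fold change of 3.48 (SE 0.35, edgeR adjusted p = 7.41e-06).

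Of 16 factors that establish or maintain imprints, 15 were tested, 1 was higher and 1 lower, and the median log2 fold change was −0.31. Dnmt3l, the cofactor of de novo methylation in the germ line, had 0 counts in both control libraries and 34 and 16 in HD-homo, and was called higher (edgeR adjusted p = 3.07e-04). It was at least 18.4-fold higher, with bounds of 9.56 and 8.88 without control replicate 1 and 2 and of 11.4 and 25.9 without HD-homo replicate 1 and 2. Ehmt2, the H3K9 methyltransferase G9a, was at 259 and 244 CPM in control and 131 and 163 CPM in HD-homo (log2 fold change −0.78, SE 0.21, edgeR adjusted p = 0.0148). Zfp57, whose hexamer is marked in the promoter windows, was at 10.8 and 10.2 CPM in control and 11.3 and 9.64 CPM in HD-homo (−0.01, SE 0.26, edgeR adjusted p = 0.993). The maintenance methyltransferase Dnmt1 had a log2 fold change of −0.31 (SE 0.22, edgeR adjusted p = 0.401) and was not called.

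Of 10 Notch receptors and ligands listed beside Dlk1, 7 were tested, 2 were higher and 3 lower. The closest relative, Dlk2, was at 90.0 and 73.2 CPM in control and 150 and 147 CPM in HD-homo (log2 fold change 0.86, SE 0.20, edgeR adjusted p = 0.00721). The receptor Notch4 was also higher (3.54, SE 0.37, edgeR adjusted p = 1.05e-05), and the ligands Jag1 (−3.19, SE 0.33, edgeR adjusted p = 8.19e-06) and Jag2 (−1.80, SE 0.35, edgeR adjusted p = 0.00195) and the receptor Notch1 were lower.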

How the data were processed

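The study sequenced polysome mRNA after harringtonine run-off in 2 control and 2 HD-homo libraries. The submitters' processing notes name cutadapt, Bowtie 1.1.2, RSEM 1.3.0 and DESeq2, and the authors deposited whole-number counts per gene and library on GRCm38. By the labels the libraries are directional and made from poly(A)-selected RNA. Whether strand was used in counting, and how estimates became whole numbers, the sources used here do not give. A deposited table of scaled counts was not used.

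The counts of genes that passed filterByExpr (12961 of 53465) were scaled by TMM and tested in edgeR 4.0.16 (R 4.3.3) by quasi-likelihood with Benjamini-Hochberg adjustment, after the code was tested on simulated data. The spread between libraries corresponded to a dispersion of 0.0324 (median biological coefficient of variation, 17.8%). SEs come from the F statistic and may be understated for genes with few counts in a group. The members and the other gene lists were chosen with earlier results of these data known. Every member was named, with up to 4 genes of each other list and up to 3 neighbours of a domain with the lowest p, not all of which are printed. Genes named for their relation to a member (Blcap, Snhg14, Eif2ak4, Atf4, Gcn1, Cdkn1a, Cdkn1b, Cdkn2b, Notch1, Zfp57, Dnmt1) were chosen after their values were seen. So were the lower neighbours of Peg10 (Ppp1r9a, Pdk4 and Pon2). Locations, exon lengths and overlaps are from a GENCODE annotation of GRCm38 matched by gene ID for all 43 members, and sequences are from RefSeq. Alternatives covered the scaling (RLE, total counts), the filter, DESeq2 1.42.0, limma-voom (limma 3.58.1), the replicate number as a block and leaving out each library.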

Additional observations from a re-analysis of the deposited data

How the results depend on the processing

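The counts of calls, the median and each tested member were recomputed under 11 alternatives, or under those in which the member was tested (9 for Meg3, 10 for H19), and no called member reversed its direction. Outside the members, the eIF2 kinases and associated genes, the CDK inhibitors and the Nnat neighbours were followed in DESeq2 and limma-voom. Dnmt3l was followed by its bounds with each library left out. The other genes named outside the members were not followed through the alternatives. A filter of at least 10 counts in every library leaves out genes at 0 in a group. With it 4 of 18 imprinted genes were higher and 5 lower, while all 18 had a median log2 fold change of −0.33. Under the same filter 815 of all genes were higher and 883 lower, against 1344 and 1408. Leaving out each library in turn gave 5 to 8 higher and 7 to 8 lower imprinted genes, a median of −0.28 to 0.16, and 1168 to 1262 higher and 1200 to 1327 lower genes overall. The replicate numbers are shared between groups, but no label says that a number marks a shared batch or day. Same-numbered libraries deviated together over the 12961 tested genes (r = 0.39, across genes, which are not independent replicates). With the replicate number as a block, 2126 genes were higher and 2350 lower, and 9 imprinted genes were higher and 8 lower, the added ones being Phlda2 (1.52, adjusted p = 0.0161) and Ube3a (−0.51, adjusted p = 0.0123). With 2 libraries per group, small differences of genes such as Mkrn3 or Kcnq1ot1, with 8 to 22 counts per library, were not detectable at this depth.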
